A study of Mus musculus with 24 samples.

Results

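The change in RNA between 6 h and 24 h of exposure to gentamicin and pioglitazone together (PIO+GM) was measured in 6 libraries, 3 for each time, out of the 24 libraries and 8 groups of the series. They were chosen by their labels, as the libraries of organ of Corti (OC) explants exposed to both drugs at either time. The explants came from C57BL/6N mice, pups of either sex, at an age of 5 days. All explants, controls included, were first kept for 24 h in serum-containing medium with penicillin. They then received 50 μM gentamicin and 10 μM pioglitazone for 6 h or 24 h. The change was set beside that of explants left without drugs (CTRL) for the same times, again in 3 libraries for each time. RNA of 6 explants was pooled for each library, so a library averages over hair cells, supporting cells, nerve, glia, macrophages, connective tissue and blood. In such bulk samples, fewer cells of a type and less RNA per cell cannot be told apart. The labels do not say that the 3 libraries of a group came from separate litters. P-values measure the spread between libraries within groups, estimated over all 24 libraries in 8 groups. Time with the drugs and time in culture cannot be told apart within the PIO+GM libraries, which is why the CTRL change is given beside the main results.

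Gentamicin is an aminoglycoside antibiotic that enters hair cells, the sensory cells of the inner ear, and damages them. Pioglitazone activates PPAR-γ, a nuclear receptor that pairs with the retinoid X receptor and switches on genes of fatty acid handling. Tissue put into culture responds to dissection with bursts of immediate early, heat shock and amino acid stress genes, which usually fade. Here the times of 6 h and 24 h began after 24 h in culture, and the part of dissection in the changes below was not tested. Interferons induce antiviral genes through JAK kinases and STAT factors.

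Library totals were 7211357 to 12795988 counts at 6 h and 11961078 to 15206208 at 24 h in PIO+GM, and 11516308 to 15052556 in the 6 CTRL libraries. Levels are given as CPM (counts divided by the library total in units of 1e6 counts), scaled with TMM factors, and 3 counts correspond to 0.197 to 0.416 CPM in the PIO+GM libraries, a floor that covers counting error only. Libraries 2 and 3 of PIO+GM 6 h stood apart from the other 10 libraries compared. Transcripts rich in GC had fewer counts there (Spearman's rho -0.57 and -0.76 across genes, which are not independent), against 0.015 for library 1 and -0.068 to 0.19 at 24 h. Outside the comparison, library 2 of pioglitazone alone at 6 h had -0.64. Library 3 was also the shallowest of the 24. Values without these libraries, or with a GC trend removed from every library, are given where they change a count or a leading gene most, and the number of other named calls that are lost is given with the dependence on processing. Hair cell markers were present (none of the 30 was at 0 in the PIO+GM libraries), and the summed level of the list ranged from 952 to 1389 CPM at 6 h and from 907 to 1297 CPM at 24 h in PIO+GM. The OC label thus had its defining markers. Supporting cell markers (6455 to 14179 CPM), chondrocyte and bone markers (4311 to 8963 CPM) and fibroblast markers (3588 to 4814 CPM) had the highest summed levels. The other lists were Schwann cell markers (695 to 3362 CPM), neuron markers (563 to 854 CPM), endothelial markers (328 to 513 CPM), erythroid markers (96.4 to 525 CPM), macrophage markers (101 to 366 CPM) and melanocyte markers (48.7 to 221 CPM), all as ranges over the 6 PIO+GM libraries.

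Between 6 h and 24 h with both drugs, most genes tested of the integrated stress response, interferon and chemokine lists were lower, and most lysosomal genes were higher, as counted below. Of 16317 genes tested, 5646 passed an adjusted p of 0.05 (34.6%) by edgeR's quasi-likelihood test with Benjamini-Hochberg adjustment, 2876 higher (17.6%) and 2770 lower (17%) at 24 h. Of these, 1170 rose by more than 1 on the log2 scale (7.17%) and 1005 fell by more than that (6.16%). CPM of the 3 libraries at 24 h and the 3 at 6 h did not overlap for 7031 genes (43.1%), and those of CTRL did not for 7578 (46.4%). In CTRL, 4564 genes passed (28%), 2413 higher (14.8%) and 2151 lower (13.2%), of which 927 (5.68%) rose and 818 (5.01%) fell by more than 1 on the log2 scale. The CTRL count was 2665 without library 2 of CTRL 6 h. The comparisons share no library. In all, 3183 genes passed in both in the same direction, which was 56.4% of the PIO+GM calls and 69.7% of the CTRL calls, and 4 passed in opposite directions. Across genes, which are not independent, the log2 fold changes of PIO+GM and CTRL had a Pearson's r of 0.77. No gene passed for the difference between the changes, the interaction of time and both drugs, where 978 genes had an unadjusted p under 0.05 (5.99%), 382 positive (2.34%) and 596 negative (3.65%). That count of 978 was 3200 without library 1 of PIO+GM 6 h, 632 without library 3 of CTRL 24 h and 510 without libraries 2 and 3 of PIO+GM 6 h. DESeq2's Wald test called 12 genes for that difference, all negative. With a block for the replicate number within each time, 2 genes passed, likewise negative, and 1717 had an unadjusted p under 0.05. The count of PIO+GM calls was 3453 without library 2 of PIO+GM 6 h and 3184 without libraries 2 and 3.

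**Figure D1:**
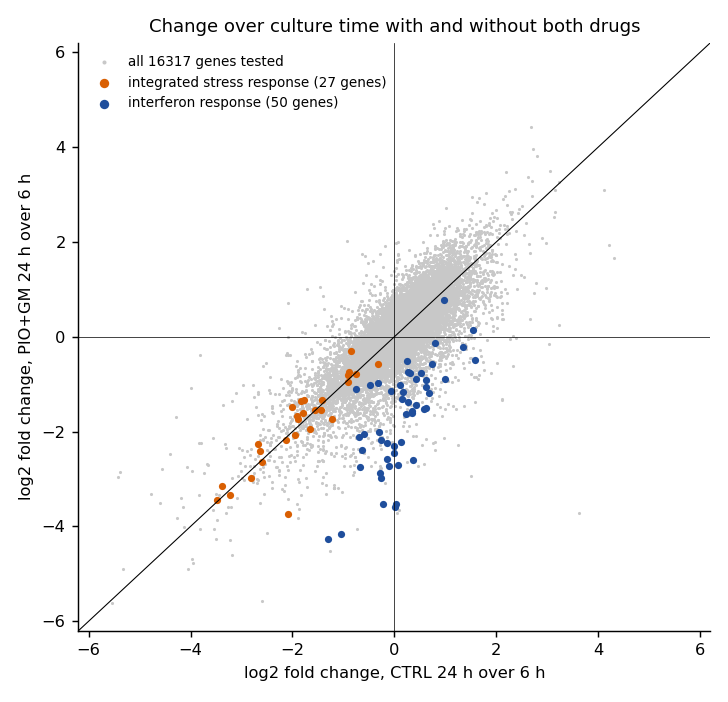
Each point is a gene, with its log2 fold change from 6 h to 24 h in CTRL on the horizontal axis and in PIO+GM on the vertical axis, and the diagonal marks equal changes. The genes of the integrated stress response lie along the diagonal below 0 in both, while most genes of the interferon response lie below it, near 0 on the CTRL axis and negative on the PIO+GM axis.

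The median log2 fold change rose with GC content in PIO+GM, from -0.29 in the 3078 genes with the lowest GC content to 0.41 in the 3078 with the highest. In CTRL the same medians were -0.0080 and 0.060. For the interaction they were -0.28 and 0.37, with a Spearman's rho of 0.55 between GC content and interaction across genes, which are not independent. When the GC trend of every library had been removed, the PIO+GM medians were -0.026 and 0.013, and 5716 genes passed (17.3% higher and 17.8% lower). Genes said below to have risen or fallen passed with and without this removal unless their values after it are stated.

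**Figure D2:**
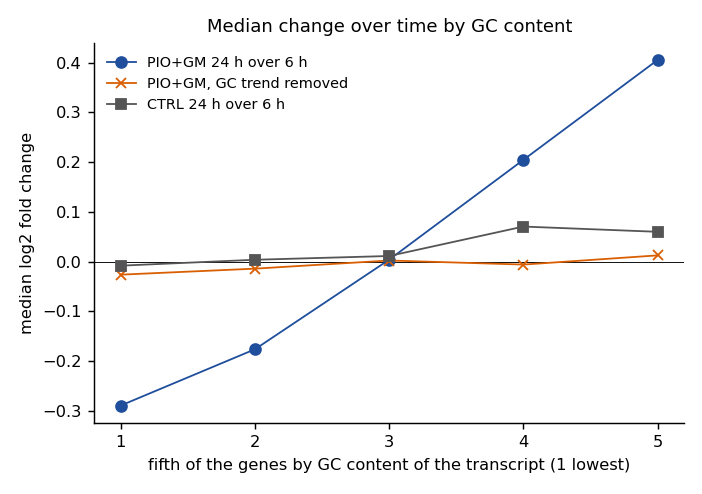
Median log2 fold change from 6 h to 24 h (vertical axis) is plotted for 5 bins of 3078 genes ordered by the GC content of their transcripts (horizontal axis). The PIO+GM line climbs from -0.29 to 0.41, while the line of PIO+GM after removal of the GC trend and that of CTRL stay between -0.026 and 0.071.

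The largest rise with both drugs was that of Ndufa4l2. Ndufa4l2 (chr10:127509274-127517154, GRCm38), which encodes a mitochondrial protein induced by hypoxia, had 3.98, 1.77 and 6.89 CPM at 6 h and 69.1, 120 and 69.6 CPM at 24 h. All libraries at 24 h lay far above those at 6 h, with a log2 fold change of 4.41 ± 0.97 (SE, adjusted p = 0.0019 by edgeR). In CTRL it rose by 2.68 on the log2 scale. Ndufa4l2 had 4.43 and an adjusted p of 0.060 without libraries 2 and 3 of PIO+GM 6 h. Car9, a carbonic anhydrase at the cell surface that is also induced by hypoxia, had 15.7, 17.3 and 36.7 CPM at 6 h and 130, 220 and 142 CPM at 24 h. Its log2 fold change was 2.84 ± 0.68 (adjusted p = 0.0035 by edgeR) and 1.61 in CTRL (adjusted p = 0.067). The list of glycolysis and hypoxia genes, which holds Car9 and not Ndufa4l2, had 4 of 26 genes tested higher and 0 lower, a share of higher genes near that of all genes (17.6%), and 1 higher without library 2 of PIO+GM 6 h. P4ha2, a collagen prolyl hydroxylase of the same list, had a log2 fold change of 1.25 (adjusted p = 0.049 by edgeR), and 0.97 with an adjusted p of 0.12 once the GC trend was removed.

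Ranbp3l, which encodes a Ran-binding protein, had 0.932, 1.44 and 3.38 CPM at 6 h and 16.5, 20.9 and 24.3 CPM at 24 h, a log2 fold change of 3.50 ± 0.40 (adjusted p = 9.4e-06 by edgeR) against 3.06 in CTRL. Rxfp3, a relaxin-family peptide receptor, had 1.36, 1.52 and 2.30 CPM at 6 h and 21.6, 17.4 and 10.1 CPM at 24 h. H19, an imprinted RNA whose reads are shared with the microRNA it hosts, had 699, 487 and 595 CPM at 6 h and 2680, 5890 and 3900 CPM at 24 h. It rose by 2.81 ± 0.45 on the log2 scale in PIO+GM and by 1.77 in CTRL. The others of the 10 largest rises, among called genes that averaged at least 100 counts and whose libraries did not overlap, were Slc13a4, a sulfate transporter (3.03 on the log2 scale), Selenbp1, a selenium-binding protein (2.97), Lyz2, the lysozyme of macrophages (2.78), Tle2, a co-repressor of transcription (2.67), and Wdr86 (2.63). They, Ndufa4l2, Ranbp3l, Rxfp3 and H19 also passed in CTRL in the same direction, and Car9 did not pass there.

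The largest fall was that of Tfpi2. Tfpi2 (chr6:3962589-3988978), a secreted protease inhibitor, had 48.6, 30.0 and 12.0 CPM at 6 h and 0.728, 0.606 and 0.491 CPM at 24 h. Its log2 fold change was -5.61 ± 0.56 in PIO+GM (adjusted p = 2.3e-06 by edgeR) and -5.55 in CTRL. The interaction was -0.06, with a 95% interval from -1.64 to 1.52. Among called genes that averaged at least 100 counts and whose libraries did not overlap, Klhdc8a, a kelch-domain protein, fell by 4.69, Bcat1, the cytosolic enzyme that starts the breakdown of branched-chain amino acids, by 4.05, and Slco2a1, the prostaglandin transporter, by 4.02 on the log2 scale. Their falls in CTRL were -3.97, -3.82 and -4.14. Dmp1, a matrix protein of bone, had 228, 124 and 78.1 CPM at 6 h and 16.7, 11.1 and 7.52 CPM at 24 h. Its fall was -3.60 ± 0.49 on the log2 scale, beside -4.15 in CTRL, and the other 11 genes tested of the chondrocyte and bone list did not pass. Plaur, the urokinase receptor, fell by 3.34 and Timp1, a metalloprotease inhibitor, by 3.09, while the matrix metalloproteases Mmp14 and Mmp11 rose by 1.40 and 1.33. Of 27 matrix proteases and inhibitors, 4 were higher and 5 lower, near the shares of all genes (17.6% and 17%), and 7 were higher without library 1 of PIO+GM 6 h. Col4a3 and Col4a4, chains of basement membrane collagen that are encoded side by side, fell by 3.35 and 1.96, and Col27a1, a fibrillar collagen, rose by 1.35. The other collagen genes gave 1 call in 28, against 34.6% of all genes, and the change of Col4a4 in CTRL was -0.64 (adjusted p = 0.28).

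**Figure D3:**
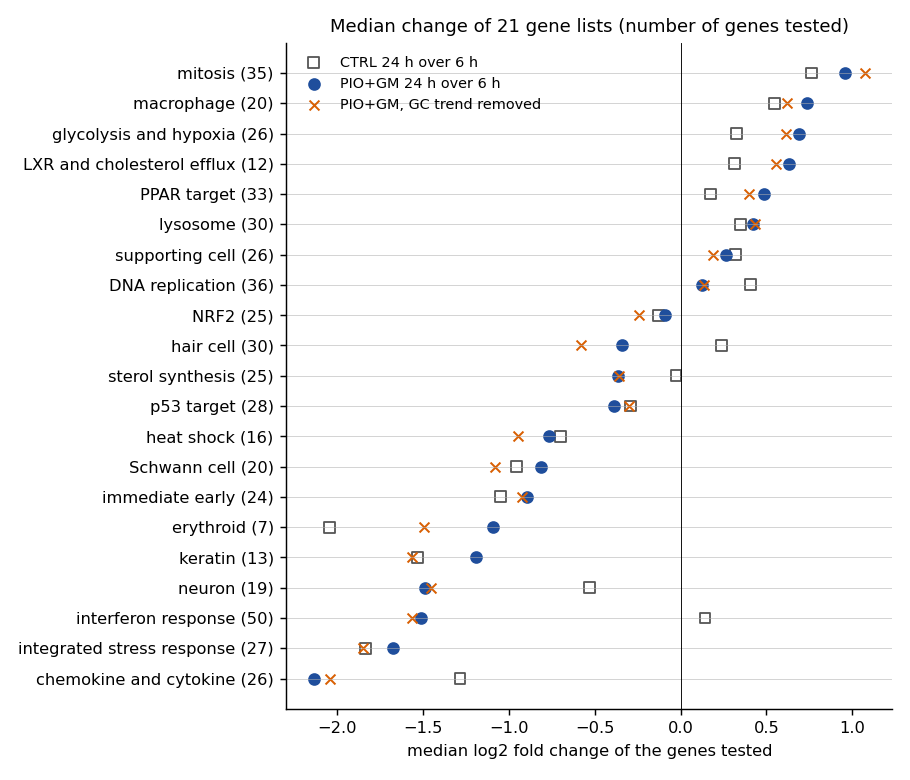
Filled circles show the median log2 fold change of each gene list in PIO+GM, crosses the same after removal of the GC trend, and open squares the median in CTRL, with the number of genes tested in brackets. The chemokine, integrated stress response and interferon lists are the lowest in PIO+GM at -2.14, -1.68 and -1.51, and the interferon list is the one of these 3 with a CTRL median near 0 (0.14).

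The integrated stress response fell almost as a whole. Its transcription factors, ATF4 and partners, switch on amino acid transporters and synthetases when translation initiation is curbed. Of 27 genes tested, 25 passed and all 25 were lower, against 17% of all genes, with a median log2 fold change of -1.68 against 0.0068 over all genes. In CTRL 25 were also lower, with a median of -1.84. With the GC trend removed 26 were lower in PIO+GM. The mean log2 CPM of the list was 7.25, 7.06 and 6.28 in the libraries of 6 h and 4.82, 5.34 and 5.06 in those of 24 h. Every library of 24 h lay more than 0.9 below every library of 6 h. Slc7a11 (chr3:50364936-50499087), the cystine and glutamate exchanger, had 386, 392 and 271 CPM at 6 h and 31.7, 20.0 and 26.8 CPM at 24 h. Its log2 fold change was -3.74 ± 0.43 in PIO+GM (adjusted p = 8.85e-06 by edgeR) and -2.08 in CTRL. The interaction was -1.66 ± 0.55 with an adjusted p of 0.74. Asns, asparagine synthetase, had 340, 338 and 296 CPM at 6 h and 22.0, 31.7 and 36.3 CPM at 24 h, and its log2 fold change of -3.44 stood beside -3.47 in CTRL. Of the 27 genes, 1 had an unadjusted interaction p under 0.05.

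The promoters of 2 further members, chosen after their values were seen because they hold the motif, show the sequence element through which CCAAT-enhancer-binding and ATF proteins are known to act, here searched as TGATGNAAT on both strands. Windows run from 250 bases before to 50 after the annotated start (RefSeq, build GRCm38.p6), are printed 5′ to 3′ on the gene's strand, and the capitals mark the match.
Nupr1, chr7:126625421-126625720, minus strand: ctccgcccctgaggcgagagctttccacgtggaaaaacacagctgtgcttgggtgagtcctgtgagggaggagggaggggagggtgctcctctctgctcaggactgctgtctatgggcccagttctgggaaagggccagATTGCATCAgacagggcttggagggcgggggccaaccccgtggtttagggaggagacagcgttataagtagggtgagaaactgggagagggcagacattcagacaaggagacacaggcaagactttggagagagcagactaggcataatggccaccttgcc
Pycr1, chr11:120643699-120643998, minus strand: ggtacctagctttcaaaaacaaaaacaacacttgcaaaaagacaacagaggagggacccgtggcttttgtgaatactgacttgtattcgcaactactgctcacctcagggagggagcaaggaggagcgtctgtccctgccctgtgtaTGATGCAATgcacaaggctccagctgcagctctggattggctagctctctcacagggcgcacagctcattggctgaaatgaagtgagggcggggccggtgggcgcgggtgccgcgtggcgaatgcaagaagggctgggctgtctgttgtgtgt
The motif was in 4 of the 24 tested members with a window (16.7%) and in 1.08% of all 27025 genes with a window. A match describes these letters only. Nupr1, a small stress-induced chromatin protein, had 91.7, 96.9 and 84.4 CPM at 6 h and 16.3, 49.5 and 16.1 CPM at 24 h, a log2 fold change of -1.74 ± 0.35 (adjusted p = 0.0011 by edgeR). Pycr1, an enzyme of proline synthesis, had 12.2, 9.47 and 9.59 CPM at 6 h and 4.63, 7.88 and 5.56 CPM at 24 h, and fell by 0.79 on the log2 scale. The groups did not overlap for either gene. Pycr1 lost its call without library 1 of PIO+GM 6 h, without library 1 or 3 of PIO+GM 24 h, and with the libraries of the comparison alone.

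Other stress programs fell in part. Of 16 heat shock genes, 11 were lower and 0 higher, against 17% and 17.6% of all genes, with a median of -0.77 (-0.70 in CTRL), and 13 were lower with the GC trend removed. Hsph1, a chaperone of the HSP110 family, had 235, 237 and 275 CPM at 6 h and 88.6, 76.5 and 91.3 CPM at 24 h (log2 fold change -1.54 ± 0.14, adjusted p = 1.3e-06 by edgeR). Hsp90aa1, the inducible form of HSP90, fell by 1.53. The heat shock element, searched on both strands as GAA, 2 further bases, TTC, 2 further bases and GAA, was in 4 of 12 members with a window (33.3%) and in 0.662% of all genes with one. It is shown in capitals for Hsph1, where it starts 15 bases after the one of 2 annotated starts whose window is printed.
Hsph1, chr5:149636266-149636565, minus strand: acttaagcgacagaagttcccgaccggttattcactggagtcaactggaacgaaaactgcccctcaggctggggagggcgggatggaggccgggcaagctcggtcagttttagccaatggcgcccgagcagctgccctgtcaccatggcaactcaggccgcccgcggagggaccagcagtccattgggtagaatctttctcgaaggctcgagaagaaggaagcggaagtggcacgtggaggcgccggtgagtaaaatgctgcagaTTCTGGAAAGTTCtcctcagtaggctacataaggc
Among 24 immediate early genes, which respond within minutes to growth factors and injury, 9 were lower and 1 higher, against the same shares, and 11 were lower with the GC trend removed. In CTRL 11 were lower. Fosl1, a partner of JUN, had 20.2, 15.6 and 1.35 CPM at 6 h and 0.794, 0.227 and 0.164 CPM at 24 h. Its libraries did not overlap, although library 3 of 6 h, with 10 counts, lay far below the others of 6 h. Libraries 2 and 3 of 24 h had 3 and 2 counts, at or below the floor of 3 counts. In CTRL it fell by 5.32 on the log2 scale. Arc fell by 2.18 on the log2 scale, while Btg2, an inhibitor of proliferation, was the 1 gene that rose (0.71). Of 13 keratin and cornified envelope genes, 6 were lower and 0 higher, against 17% and 17.6% of all genes. The lower genes included Krt8, a keratin of simple epithelia (-1.33), and Sprr1a, a cornified envelope protein (-3.32). In CTRL 10 of the 13 were lower, and in PIO+GM 7 with the GC trend removed.

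NRF2, the factor that answers oxidants, had a list of 25 targets with 10 lower and 4 higher, against 17% and 17.6% of all genes. With the GC trend removed the counts were 9 and 2, and in CTRL they were 8 and 4. Without library 2 of PIO+GM 6 h or libraries 1 or 3 of PIO+GM 24 h, 6 were lower. Srxn1, which repairs oxidized peroxiredoxins, fell by 3.32 on the log2 scale (-3.50 in CTRL) and Hmox1, heme oxygenase, by 1.06. Blvrb, which reduces biliverdin downstream of it, rose by 1.50 and Gstm1, a glutathione transferase, by 0.95. Of 28 p53 targets, 5 were higher and 7 lower, near the shares of all genes (17.6% and 17%; 4 and 8 with the GC trend removed, and 3 lower without library 2 of PIO+GM 6 h or libraries 1 or 3 of PIO+GM 24 h). Among them were Aen, a nuclease of apoptosis (-1.61), and Perp (-1.41) as lower and Ddb2, a DNA repair protein (0.91), as higher. Dcxr, also higher (0.98), had a log2 fold change of 0.48 and an adjusted p of 0.18 after removal of the GC trend. In CTRL 5 p53 targets were higher and 9 lower. The unfolded protein response list of 20 genes had 5 lower and 1 higher, against 17% and 17.6% of all genes, and 0 lower without library 2 of PIO+GM 6 h. Dnajb9 (-1.09) and Herpud1 (-1.02), which serve protein folding and degradation at the endoplasmic reticulum, were among the lower and Calr, its calcium-binding chaperone, was the higher (0.56).

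Interferon-induced genes were the list with the widest gap between the changes of PIO+GM and CTRL, although no gene passed for the difference by edgeR. Of 50 genes tested, 37 were lower and 1 higher in PIO+GM, against 17% and 17.6% of all genes. In CTRL 5 were higher and 0 lower. The median log2 fold change was -1.51 in PIO+GM and 0.14 in CTRL. For the interaction, 39 of the 50 had an unadjusted p under 0.05, against 5.99% of all genes (25 without library 1 of PIO+GM 6 h), and 0 had an adjusted p under 0.05, while DESeq2 called 6 of them. Leaving out library 1 of PIO+GM 6 h, which had the highest levels, left 26 genes lower with a median of -0.92. Without libraries 2 and 3 of that group 42 were lower and the median was -2.21.

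The mean log2 CPM of the list was 5.12, 4.13 and 3.66 in the libraries of PIO+GM 6 h and 3.15, 2.69 and 2.49 at 24 h. The groups did not overlap. In CTRL it was 3.04, 3.70 and 2.37 at 6 h and 3.32, 2.51 and 3.77 at 24 h. At 24 h the libraries of PIO+GM lay at the level of the lower CTRL libraries, and at 6 h the lowest PIO+GM library lay near the highest of CTRL. With gentamicin alone the list had 3.88, 4.43 and 4.54 at 6 h and 4.17, 3.11 and 3.86 at 24 h, and with pioglitazone alone 3.54, 2.98 and 3.13 at 6 h and 2.41, 2.49 and 2.49 at 24 h.

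**Figure D4:**
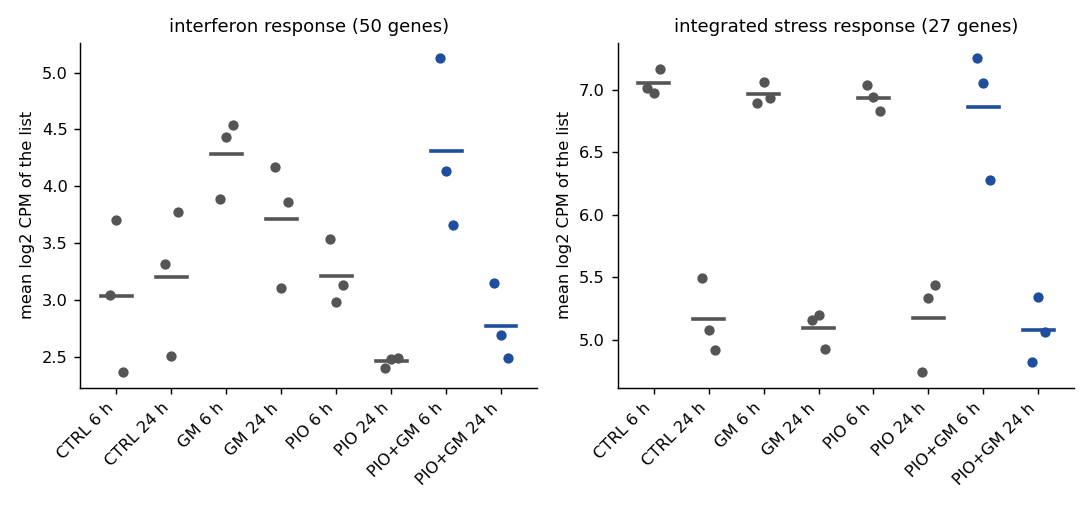
Each point is a library and each bar the mean of 3, with the mean log2 CPM of the list on the vertical axis and PIO+GM in blue. The interferon list reaches 5.12 in PIO+GM at 6 h and 2.49 to 3.15 at 24 h, whereas the integrated stress response list is at 6.28 or above in the groups of 6 h and at 5.50 or below in those of 24 h.

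Rsad2 (chr12:26442743-26456452), the antiviral enzyme viperin, had 158, 69.8 and 28.4 CPM at 6 h and 6.75, 3.86 and 2.54 CPM at 24 h in PIO+GM. In CTRL it had 15.2, 22.3 and 5.27 CPM at 6 h and 8.26, 1.59 and 7.77 CPM at 24 h. The PIO+GM groups were far apart and the CTRL groups overlapped. The log2 fold change was -4.27 ± 0.73 in PIO+GM (adjusted p = 0.00028 by edgeR) and -1.30 in CTRL (adjusted p = 0.17), and the interaction was -2.97 ± 0.96 with an adjusted p of 0.74. Isg15, a ubiquitin-like modifier, had 21.7, 9.23 and 5.67 CPM at 6 h and 2.58, 1.29 and 0.736 CPM at 24 h, against a CTRL range of 1.20 to 5.38 at 6 h and 1.12 to 4.89 at 24 h. It fell by 2.97 on the log2 scale. Oasl1, a member of the oligoadenylate synthetase family, had 19.6, 5.94 and 1.22 CPM at 6 h and 0.463, 0.530 and 0.491 CPM at 24 h (log2 fold change -4.17). Ifit3b and Ifit3, neighbouring and nearly identical genes whose reads cannot be told apart with certainty, fell by 3.59 and 3.54, with changes of 0.011 and 0.031 in CTRL. Ifi27, the 1 member that passed as higher (0.78), rose in CTRL as well (0.98), and missed the threshold after removal of the GC trend (0.67, adjusted p = 0.064).

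The interferon-stimulated response element, to which STAT and IRF proteins bind, was searched on both strands as GAAA, 2 further bases and GAAA, and overlapping matches were counted together. It was in 20 of the 37 tested members with a window (54.1%) and in 3.99% of all 27025 genes with one. It is shown in capitals for 3 members whose fall was described above.
Rsad2, chr12:26456403-26456702, minus strand: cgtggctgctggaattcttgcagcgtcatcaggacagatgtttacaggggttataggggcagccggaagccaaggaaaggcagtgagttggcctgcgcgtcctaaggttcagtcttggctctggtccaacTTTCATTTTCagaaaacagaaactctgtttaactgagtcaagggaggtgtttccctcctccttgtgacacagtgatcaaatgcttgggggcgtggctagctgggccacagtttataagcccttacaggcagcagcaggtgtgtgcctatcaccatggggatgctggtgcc
Ifit3, chr19:34583279-34583578, plus strand: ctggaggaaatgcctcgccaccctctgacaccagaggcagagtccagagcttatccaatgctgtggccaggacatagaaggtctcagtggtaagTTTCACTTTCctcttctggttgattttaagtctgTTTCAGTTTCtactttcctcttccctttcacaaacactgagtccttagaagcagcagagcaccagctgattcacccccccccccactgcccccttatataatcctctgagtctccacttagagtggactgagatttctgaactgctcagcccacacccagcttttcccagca
Isg15, chr4:156200769-156201068, minus strand: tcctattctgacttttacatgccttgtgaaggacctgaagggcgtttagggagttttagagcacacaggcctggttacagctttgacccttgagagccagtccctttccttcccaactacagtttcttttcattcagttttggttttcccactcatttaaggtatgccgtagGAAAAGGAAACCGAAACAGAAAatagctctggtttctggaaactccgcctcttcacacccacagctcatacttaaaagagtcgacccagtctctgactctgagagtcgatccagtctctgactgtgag
The match begins 120 bases before the annotated start in Rsad2, 156 in Ifit3, which holds 2 separate matches, and 78 in Isg15, where 3 overlap. Members with the element had a median log2 fold change of -2.11 and those without it -1.32, which is a description with no test.

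Chemokines and cytokines had the lowest median of the lists at -2.14, with 16 of 26 lower and 1 higher, against 17% and 17.6% of all genes. In CTRL 11 were lower and 1 higher, with a median of -1.29. Without library 1 of PIO+GM 6 h, 10 were lower. Ccl2, which attracts monocytes, had 56.8, 29.2 and 4.46 CPM at 6 h and 1.92, 1.06 and 0.654 CPM at 24 h (log2 fold change -4.61 ± 1.05, adjusted p = 0.0024 by edgeR). Its neighbour Ccl7 fell by 3.82, beside -4.26 in CTRL. The 1 gene that rose was Il18, an interleukin processed by the inflammasome, with 1.69, 2.97 and 4.46 CPM at 6 h and 7.08, 8.33 and 6.54 CPM at 24 h. Its rise was 1.29 in PIO+GM and 2.48 in CTRL. Of 36 genes of Toll-like receptor and STAT signaling, 5 were higher and 3 lower, both below the shares of all genes (17.6% and 17%), with 8 higher without library 1 of PIO+GM 6 h, 3 without library 2, and 6 higher and 5 lower with the GC trend removed. Jak1, a kinase of interferon receptors, fell by 0.65 and Tlr2, a receptor for bacterial lipoproteins, by 0.91, whereas Tlr5, the flagellin receptor, rose by 2.16 and Tyk2, another such kinase, by 0.86. Changes of Jak1 and Tlr2 in CTRL were -0.63 and -0.80.

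The 6 genes with the lowest p for the interaction all had negative differences, and their adjusted p ranged from 0.18 to 0.35. After removal of the GC trend the differences were still negative, with adjusted p from 0.58 to 0.70 by edgeR. Those of Gbp6, Gbp10 and Trim12a were then -1.27, -1.23 and -1.01, and those of Parp9, Grm7 and Ecm2 -1.41, -2.40 and -1.87. Gbp6, an interferon-induced GTPase, had 135, 117 and 135 CPM at 6 h and 99.1, 127 and 106 CPM at 24 h in PIO+GM, while in CTRL it rose from 35.8, 40.1 and 43.2 CPM to 90.4, 68.6 and 143 CPM. The level with both drugs was thus already high at 6 h, and CTRL approached it at 24 h. The difference was -1.56 ± 0.27 on the log2 scale (adjusted p = 0.18 by edgeR). Gbp10, a related GTPase whose sequence is close to that of Gbp6, had 42.8, 41.5 and 47.3 CPM at 6 h and 51.9, 52.9 and 56.8 CPM at 24 h with both drugs, beside 10.9 to 19.5 CPM and 33.4 to 62.1 CPM in CTRL. Trim12a, a tripartite motif protein, had the same order, with 12.0 to 16.2 CPM at 6 h and 11.5 to 13.5 CPM at 24 h in PIO+GM and a rise of 1.01 on the log2 scale in CTRL. Parp9, an interferon-induced member of the PARP family, fell from 56.5, 37.5 and 38.5 CPM to 27.7, 23.0 and 20.0 CPM with both drugs (log2 fold change -0.91) and rose by 0.63 in CTRL. Grm7, a metabotropic glutamate receptor, and Ecm2, an extracellular matrix protein, were likewise lower with both drugs (-1.53 and -0.90) and higher in CTRL (0.99 and 1.25), though Ecm2 missed the threshold in PIO+GM after removal of the GC trend (-0.66, adjusted p = 0.089). Parp9, Grm7, Ecm2 and Egfem1 were the 4 genes that passed in opposite directions. Egfem1, named after its values were seen, had a mean of 1.29 CPM at 6 h and 0.436 CPM at 24 h with both drugs.

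Among 33 targets of PPAR tested, 16 rose and 0 fell, against 17.6% and 17% of all genes (10 rose without library 2 of PIO+GM 6 h), with a median of 0.48, beside 11 higher, 3 lower and a median of 0.18 in CTRL. Angptl4, an inhibitor of lipoprotein lipase, had 35.7, 20.0 and 20.8 CPM at 6 h and 87.8, 83.6 and 60.8 CPM at 24 h, and in CTRL 5.47, 22.6 and 6.31 CPM at 6 h and 7.82, 9.78 and 7.86 CPM at 24 h. The PIO+GM libraries did not overlap between the times and lay above all CTRL libraries at 24 h. The log2 fold change was 1.60 ± 0.40 (adjusted p = 0.0050 by edgeR) against -0.42 in CTRL, with an interaction of 2.02 ± 0.58 (adjusted p = 0.73). Without libraries 2 and 3 of PIO+GM 6 h the log2 fold change of Angptl4 was 1.12 (adjusted p = 0.20). Cpt1a, which admits fatty acids to mitochondria, had 144, 116 and 129 CPM at 6 h and 191, 184 and 164 CPM at 24 h (log2 fold change 0.47, adjusted p = 0.0051 by edgeR). Plin2, a lipid droplet coat protein, and Pdk4, a kinase that restrains pyruvate oxidation, did not pass (0.49 with an adjusted p of 0.093, and -0.48 with an adjusted p of 0.24), though Plin2 passed without library 1 of PIO+GM 6 h (0.70). Pdk4 fell in CTRL (-1.08).

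**Figure D5:**
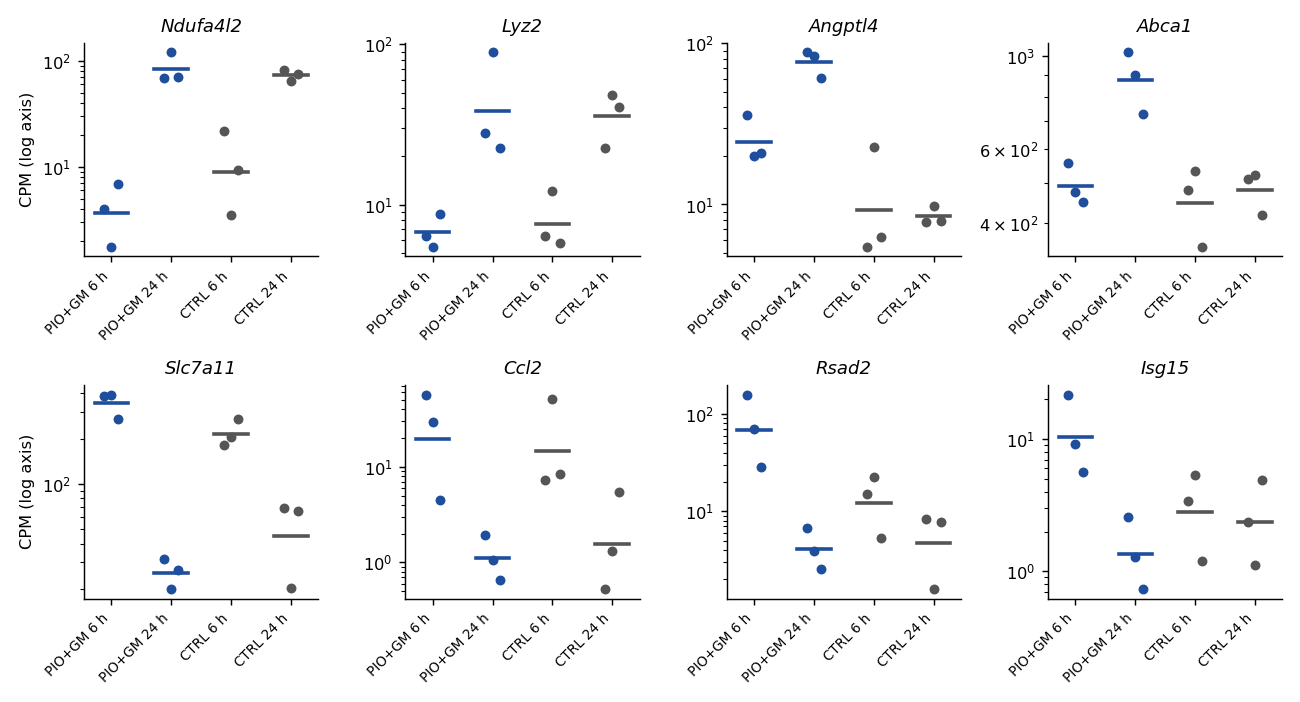
CPM on a log axis for 8 genes, with a point for each library, bars at geometric means, PIO+GM in blue and CTRL in grey. Ndufa4l2, Lyz2 and Slc7a11 moved in the same direction in both, Angptl4 and Abca1 rose in PIO+GM with overlapping groups in CTRL, and Rsad2 and Isg15 were highest in PIO+GM at 6 h.

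The liver X receptors (LXR), which sense oxysterols, and their targets of cholesterol efflux were higher in 7 of 12 genes and lower in 0, against 17.6% and 17% of all genes, with a median of 0.63. In CTRL 0 passed and the median was 0.32, and 0 passed for the interaction. Abca1, the transporter that loads cholesterol onto lipoproteins, had 556, 476 and 450 CPM at 6 h and 1020, 903 and 729 CPM at 24 h (log2 fold change 0.84 ± 0.21, adjusted p = 0.0043 by edgeR). In CTRL its libraries ranged from 352 to 534 CPM at 6 h and from 419 to 522 CPM at 24 h. Abcg1, its partner in efflux, had 36.2, 26.3 and 30.3 CPM at 6 h and 76.6, 71.1 and 67.3 CPM at 24 h and rose by 1.21, beside 0.35 in CTRL. The other members that rose were Srebf1, the regulator of fatty acid synthesis (1.44), Nr1h2, which encodes LXRβ (0.97), Scd2, a fatty acid desaturase (0.65), Mylip, which degrades the LDL receptor (0.45), and Nr1h3, which encodes LXRα (1.01). Nr1h3 missed the threshold after removal of the GC trend (0.62, adjusted p = 0.16). Scd1, Lpcat3, Abcg4, Pltp and Apoe had log2 fold changes of 0.33 to 0.61 and did not pass, but Abcg4, Pltp and Apoe passed without library 1 of PIO+GM 6 h. Without libraries 2 and 3 of PIO+GM 6 h, 1 of the 12 passed, and Abca1 had 0.67 (adjusted p = 0.14).

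Of 25 sterol synthesis genes, 10 were lower and 2 higher, against 17% and 17.6% of all genes, with a median of -0.36, beside 5 lower, 3 higher and a median of -0.03 in CTRL. Msmo1, which removes a methyl group from lanosterol derivatives, had 96.2, 132 and 104 CPM at 6 h and 39.2, 30.5 and 41.8 CPM at 24 h (log2 fold change -1.58 ± 0.29, and -0.83 in CTRL). Idi1, isopentenyl diphosphate isomerase, fell by 1.56. The higher genes were Tm7sf2, a sterol reductase (1.17), and Mvk, mevalonate kinase (0.82), of which Mvk missed the threshold after removal of the GC trend (0.38, adjusted p = 0.075). Lysosomal genes were higher in 17 of 30 (16 with the GC trend removed) and lower in 0, against 17.6% and 17% of all genes, with a median of 0.42 (0.35 in CTRL, 12 higher). Hexa, a lysosomal glycosidase subunit, rose by 1.27 on the log2 scale. Hexa had 72.6, 60.3 and 59.4 CPM at 6 h and 161, 141 and 163 CPM at 24 h.

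In the circadian clock, CLOCK and its partner encoded by Arntl drive the Per and Cry repressors and the Rev-erb and PAR bZIP factors. Of 19 genes tested, 6 were higher and 4 lower, against 17.6% and 17% of all genes, and in CTRL 5 were higher and 4 lower. On the positive limb, Arntl had 92.7, 100 and 71.1 CPM at 6 h and 49.3, 38.6 and 55.5 CPM at 24 h (log2 fold change -0.88), Clock fell by 0.73, and Npas2 had -0.36 (adjusted p = 0.39). Among the repressors, Per3 rose by 1.68 ± 0.17, from 55.1, 52.7 and 55.3 CPM to 196, 161 and 164 CPM (1.89 in CTRL), and Cry1 fell by 0.98. Cry2 rose by 0.55 with an adjusted p of 0.0495, and had 0.28 with an adjusted p of 0.16 after removal of the GC trend. Per1 and Per2 had 0.73 and 0.33 and did not pass, though Per1 passed without library 1 of PIO+GM 6 h (0.98). Of the output factors, Dbp rose by 1.73, Tef by 1.35 and Hlf by 1.57, and their opponent Nfil3 fell by 0.93. Dbp had 6.95, 7.38 and 7.43 CPM at 6 h and 25.4, 19.1 and 27.6 CPM at 24 h. Rora, Nr1d1, Nr1d2, Bhlhe40, Bhlhe41 and Ciart did not pass, with log2 fold changes from -0.38 to 0.38. Nr1d2 had 0.38 in PIO+GM, 0.64 with an adjusted p of 0.0036 after removal of the GC trend, and 0.95 in CTRL. Both times of a comparison are single points of a daily cycle, so a phase cannot be read from them.

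The E-box, the CLOCK binding sequence searched as CACGTG, was in 5 of 16 clock genes with a window (31.2%) and in 8.09% of all genes with one. Ciart, a repressor of the loop, is shown because its window holds 3 matches.
Ciart, chr3:95882179-95882478, minus strand: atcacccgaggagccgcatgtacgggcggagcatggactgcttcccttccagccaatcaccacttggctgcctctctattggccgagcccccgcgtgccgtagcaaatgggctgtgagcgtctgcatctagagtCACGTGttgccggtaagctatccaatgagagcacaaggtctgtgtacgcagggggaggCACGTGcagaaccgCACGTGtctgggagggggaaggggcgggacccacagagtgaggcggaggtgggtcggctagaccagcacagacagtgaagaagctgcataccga
Ciart had 10.7, 11.5 and 8.65 CPM at 6 h and 7.41, 7.80 and 8.59 CPM at 24 h in PIO+GM, with a log2 fold change of -0.38 (adjusted p = 0.26) beside -0.76 in CTRL.

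Of 35 mitosis genes, 14 were higher and 0 lower, against 17.6% and 17% of all genes, with a median of 0.96 (7 higher and a median of 0.76 in CTRL). The count was 22 after removal of the GC trend and 2 without libraries 2 and 3 of PIO+GM 6 h. Leaving out 1 library, it was 4 without library 2 and 7 without library 3 of PIO+GM 6 h, and 3 without library 2 of PIO+GM 24 h. Ube2c, which feeds the anaphase-promoting complex, had 1.61, 0.482 and 0.811 CPM at 6 h and 2.05, 4.92 and 2.21 CPM at 24 h, and Kif2c, a kinesin of the centromere, rose by 1.50 on the log2 scale. At 6 h these levels were 0.482 to 3.05 CPM, low in count. Of 36 genes of DNA replication, 4 were higher and 4 lower, both below the shares of all genes (17.6% and 17%; 1 and 2 without library 2 of PIO+GM 6 h, and 6 and 3 with the GC trend removed). They included Chaf1b (1.48) and Rfc5 (0.75) as higher and Pcna, the sliding clamp (-0.90), and Pola1, the catalytic subunit of DNA polymerase α (-0.73), as lower. In CTRL 10 of the 36 were higher and 1 lower, with a median of 0.41 beside 0.13 in PIO+GM. For the interaction 7 of the 36 had an unadjusted p under 0.05, against 5.99% of all genes, and 0 passed.

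Of 30 hair cell genes tested, 4 were lower and 1 higher in PIO+GM, against 17% and 17.6% of all genes, with a median of -0.34 (5 lower and a median of -0.58 with the GC trend removed), and 1 was lower and 1 higher in CTRL, with a median of 0.24. Without library 2 of either PIO+GM group, 2 were lower. Pvalb, a calcium buffer, had 32.2, 30.3 and 18.6 CPM at 6 h and 4.30, 4.17 and 6.46 CPM at 24 h, a log2 fold change of -2.45 ± 0.53 (adjusted p = 0.0018 by edgeR) beside -1.14 in CTRL (adjusted p = 0.10). Calb2, another calcium buffer, had 59.8, 46.7 and 23.2 CPM at 6 h and 13.2, 11.7 and 15.9 CPM at 24 h and fell by 1.67, beside -0.38 in CTRL. Both are also made by neurons of the inner ear, and 4 of 19 neuron markers were lower in PIO+GM with a median of -1.49. Their part in the change of the calcium buffers was not tested. Espn, which bundles actin in stereocilia, rose by 1.06, but had 0.47 and an adjusted p of 0.23 after removal of the GC trend. Myo7a, the stereocilia myosin, had 47.8, 42.9 and 42.7 CPM at 6 h and 72.4, 55.8 and 69.4 CPM at 24 h, with a log2 fold change of 0.57 (adjusted p = 0.075 by edgeR). It passed when only the libraries of the comparison were fitted. Pou4f3, the hair cell transcription factor, had 3.64, 4.82 and 3.92 CPM at 6 h and 8.80, 4.70 and 10.1 CPM at 24 h (0.92, adjusted p = 0.075). It passed without library 2 of PIO+GM 24 h (1.19) and with the replicate block (0.82). The groups overlapped for Pou4f3 and not for Myo7a. CTRL had 6.00 to 15.1 CPM of Pou4f3 at 6 h and 8.32 to 16.1 CPM at 24 h.

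Of 26 supporting cell genes, 3 were higher and 2 lower, both below the shares of all genes (17.6% and 17%), and 5 were higher with the GC trend removed. In CTRL 5 were higher and 2 lower. Gjb6, a gap junction connexin of the cochlea, had 61.6, 44.2 and 80.9 CPM at 6 h and 184, 182 and 178 CPM at 24 h and rose by 1.55, beside 1.29 in CTRL. Matn4 rose by 1.49, Cd44, a hyaluronan receptor, fell by 1.71 and Lgr6, a Wnt-associated receptor, by 1.06. Lgr6 lost its call without library 1 or 2 of PIO+GM 6 h, without library 1 or 3 of PIO+GM 24 h, and with the libraries of the comparison alone. Matn4 lost its call without library 2 or 3 of PIO+GM 6 h and without library 1 of PIO+GM 24 h. Sox2, the progenitor and supporting cell factor, had 42.9, 34.0 and 35.3 CPM at 6 h and 72.1, 35.1 and 77.3 CPM at 24 h, and did not pass (0.72, adjusted p = 0.10). Library 2 of 24 h stayed at the level of 6 h, and without it Sox2 passed (1.00). Among 14 Wnt targets and receptors, 5 were higher and 1 lower, against 17.6% and 17% of all genes, and in CTRL 4 were higher and 2 lower. The rises in PIO+GM were led by Fzd9, a Frizzled receptor (1.95), and Apcdd1, an inhibitor of the pathway (1.93). Of 16 Notch genes, 5 were higher and 0 lower, against 17.6% and 17% of all genes, with Notch2 rising by 1.04 and Heyl, a target, by 1.28 (1.01 with an adjusted p of 0.051 after removal of the GC trend). In CTRL 1 Notch gene was higher and 2 were lower, and without library 2 of PIO+GM 6 h 1 of the 5 rises passed.

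Marker counts of the other cells in the explant are set against 17.6% of all genes higher and 17% lower, and several were near those shares. Of 20 macrophage markers, 6 were higher and 2 lower, with a median of 0.74 (0.54 in CTRL). Lyz2 had 6.35, 5.46 and 8.78 CPM at 6 h and 28.1, 89.0 and 22.5 CPM at 24 h. C1qa, a chain of complement C1q, rose by 1.95, and Cd14, a co-receptor for lipopolysaccharide, fell by 1.65. Without libraries 2 and 3 of PIO+GM 6 h, Lyz2 had 2.87 (adjusted p = 0.078), C1qa 1.45 (0.22), S100b 2.27 (0.064) and H2-Ab1 2.84 (0.059). In that setting 0 macrophage markers passed as higher, and 2 or 3 did without library 2 of 6 h, library 3 of 6 h or library 2 of 24 h. Genes of MHC class II, which present antigen, were higher in 3 of 7, with H2-Ab1 at 1.86, 1.28 and 1.62 CPM at 6 h and 8.07, 18.5 and 13.5 CPM at 24 h (log2 fold change 3.06 ± 0.64, and 2.25 in CTRL) and H2-DMa rising by 1.77. The median of the 7 was -0.048, as 4 had negative changes, of which 0 passed. With the GC trend removed the median was -0.33 and 2 were higher, and in CTRL 2 were higher. Complement component C4b rose by 2.40 (2.58 in CTRL), one of 5 of 19 complement genes (1 without library 2 of PIO+GM 6 h and 3 with the GC trend removed). In CTRL 8 complement genes were higher and 1 lower. Of 20 Schwann cell markers, 6 were lower and 2 higher (6 and 1 with the GC trend removed, and 6 and 1 in CTRL). Gjb1, a connexin of myelinating glia, fell by 3.50 and Mag, a myelin glycoprotein, by 2.78, while S100b, made by glia and some supporting cells, had 105, 125 and 80.9 CPM at 6 h and 729, 199 and 587 CPM at 24 h (2.28). The summed level of the Schwann cell list varied widely within PIO+GM 6 h, at 3362, 1747 and 695 CPM in libraries 1, 2 and 3. The count of lower Schwann cell markers was 1 without library 1 of PIO+GM 6 h and 10 without library 3. Neuron markers were lower in 4 of 19, with Slc17a7, a vesicular glutamate transporter (-3.13), and Nefh, the heavy neurofilament (-2.72), and higher in 1, Syt1 (0.96). When a PIO+GM library was left out, Nefh lost its call each time except without library 3 of 6 h. Syt1 lost it without library 1 or 2 of 6 h and without library 1 or 3 of 24 h, and Slc17a7 without library 1 of 6 h. Of 7 erythroid markers, 3 were lower (5 with the GC trend removed, and 6 in CTRL), among them the neighbouring β-globin genes Hbb-bs (-1.70) and Hbb-bt (-1.95), which share sequence. Melanocyte markers did not pass in PIO+GM, but their summed level was 221 CPM in library 2 of 24 h against 61.3 and 48.7 CPM in the other 2. Library 2 was likewise the highest in CTRL (254 CPM), gentamicin alone (263 CPM) and pioglitazone alone (238 CPM) at 24 h, where the others had 61.1 to 78.3 CPM. The part of these cell types in the other changes was not tested.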

How the data were processed

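Stranded total RNA was sequenced as single reads. The authors aligned them to mm10 with STAR and deposited raw counts, made with QuasR's qCount from reads that begin inside RefSeq exons, for 24454 gene identifiers (24374 matched to a symbol). A column with gene lengths was not used here. The use of strand and of reads with several matches is not given in the sources used here and could affect genes with near copies.

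The deposited counts of all 24 libraries were fitted with edgeR 4.0.16 in R 4.3.3 (TMM, filterByExpr, 1 mean for each of 8 groups, quasi-likelihood F-test, Benjamini-Hochberg adjustment over 16317 genes). The SE is the log2 fold change over the square root of F. List means are of log2 CPM with a prior count of 2. A natural spline of GC content with 4 degrees of freedom was removed from each library in an alternative, and DESeq2 1.42.0 was another. The procedure was also run on simulated counts with known changes. These had the same dispersion for all genes and no GC trend or shift in cell types, so they do not cover those features. Replicate numbers were checked and not taken as pairs.

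The groups, genes and lists were chosen with earlier results of these data known, and motifs after values were seen. Named genes were the 10 higher and 10 lower with the largest change among called genes whose libraries did not overlap and that averaged at least 100 counts, the 6 with the lowest interaction p, up to 2 in each direction per list (at least 20 counts), all clock genes, members of lists of at most 12 genes, and Angptl4, Plin2, Cpt1a, Pdk4, Myo7a, Pou4f3, Sox2 and Isg15. Nupr1, Pycr1, Ifit3 and Egfem1 were added after their values were seen. Some genes that the rule names are not reported here.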

Additional observations from a re-analysis of the deposited data

Results flagged for a closer look

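Grm7, a metabotropic glutamate receptor, moved in opposite directions with and without the drugs. In PIO+GM it had 12.9, 12.0 and 6.21 CPM at 6 h and 5.36, 2.20 and 3.19 CPM at 24 h. In CTRL it had 7.80, 6.26 and 9.26 CPM at 6 h and 17.2, 12.8 and 16.4 CPM at 24 h. Neither pair of groups overlapped. The difference between the changes was -2.52 ± 0.52 on the log2 scale (unadjusted p = 9.7e-05 and adjusted p = 0.32 by edgeR), so it did not pass over all genes. DESeq2's Wald test gave an adjusted p of 0.0081.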

How the results depend on the processing

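The numbers of genes called with both drugs, in CTRL and for the interaction stayed within 1.5 times those reported with no TMM factors, with DESeq2's size factors in the edgeR fit, with no filter, with at least 10 counts in every library, with the libraries of each comparison alone and with the GC trend removed. With the libraries of each comparison alone, 4002 of 15408 genes passed with both drugs and 4189 of 15309 in CTRL. Leaving out 1 library, PIO+GM calls ranged from 3453 (without library 2 of 6 h) to 6076 (without library 1 of 6 h), 1707 to 3258 higher and 1746 to 2818 lower. CTRL calls ranged from 2665 (without library 2 of CTRL 6 h) to 4295, 1338 to 2258 higher and 1327 to 2037 lower. Without libraries 2 and 3 of PIO+GM 6 h, an alternative chosen after seeing the data in which the lone library is assumed to vary like the other groups, 3184 genes passed, 1469 higher and 1715 lower. Interaction calls were 12 by DESeq2's Wald test, all 12 lower, and ranged from 0 to 1, likewise lower, with 1 library left out (1 without library 2 of CTRL 24 h). The causes were not tested.

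Replicate numbers of PIO+GM 6 h and 24 h had correlations of 0.094, -0.24 and 0.31 those of CTRL 0.20, 0.053 and -0.15, and those of PIO+GM and CTRL at 24 h 0.012, 0.47 and 0.37. Not every pair correlated, so the numbers were not taken as pairs, although libraries 2 and 3 of 24 h deviated together. At 24 h, library 2 had the highest summed mitosis level of its group in CTRL, gentamicin alone, pioglitazone alone and PIO+GM (569, 634, 671 and 613 CPM). It also had the lowest supporting cell level (9720, 7857, 6491 and 6586 CPM in the same order). The labels do not say whether libraries of a number and time were prepared together. The replicate block gave 5905 PIO+GM calls and 0 for the interaction, a block within each time gave 2, both lower (1717 at an unadjusted p under 0.05), and the block with the GC trend removed gave 3266 lower genes in CTRL.

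Of 139 named genes, 117 passed with both drugs. Calls lost numbered 22 without library 2 and 11 and 8 without libraries 1 and 3 of PIO+GM 6 h, and 15, 9 and 12 without libraries 1, 2 and 3 of PIO+GM 24 h. With the libraries of the comparison alone 10 were lost and 2 gained (Myo7a and Per1). Calls gained numbered 5 without library 1 of 6 h (Abcg4, Apoe, Per1, Plin2 and Pltp) and 2 without library 2 of 24 h (Pou4f3 and Sox2). Without libraries 2 and 3 of 6 h 46 were lost, among them Ndufa4l2, Lyz2, Angptl4, Abca1, S100b, C1qa and H2-Ab1. Genes whose uncalled log2 fold change turned sign were Nr1d1 (-0.19 with the GC trend removed, -0.18 with the block too, -0.14 without libraries 2 and 3 of 6 h, and -0.11 to 0.33 leaving out 1 library), Rora (0.26, 0.22, 0.68, and -0.30 to 0.18 in the same order), Gbp6 (0.031 and 0.041 in the first 2), and Per2 (-0.11) and Abcg4 (-0.0034) without libraries 2 and 3 of 6 h.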

Other observations

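Of 78 mitochondrial ribosomal protein genes, 18 were lower and 7 higher, against 17% and 17.6% of all genes, and 9 were lower without library 2 of PIO+GM 6 h. The counts of the lists below are set against the same shares. With the GC trend removed, 23 were lower and 2 higher. Of 76 cytosolic ribosomal protein genes, 1 was lower and 4 higher, but 8 were lower and 0 higher with the GC trend removed. Of 74 genes of oxidative phosphorylation 9 were lower and 7 higher (10 and 5 with the GC trend removed). Among 59 replication-dependent histone genes, 4 were higher and 0 lower with a median log2 fold change of 0.91 (0.52 with the GC trend removed), beside 7 higher and a median of 0.83 in CTRL. Of 15 fibroblast markers, 4 were higher and 3 lower, of 15 endothelial markers 1 was higher, and of 9 tectorial membrane genes 0 passed by edgeR (1 had an unadjusted p under 0.05). In CTRL 5 fibroblast markers were higher and 0 lower. Among 19 targets of YAP and SRF, 4 were higher and 3 lower (2 and 3 with the GC trend removed), while in CTRL 0 were higher and 4 lower. Of 77 zinc finger genes from Zfp800 to Zfp999, 6 were higher and 7 lower, and after removal of the GC trend 15 were higher and 4 lower.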
